A study of Rattus norvegicus with 112 samples.

Results

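Primary rat cortical neurons exposed to 1 mM NMDA for 10 min, named NMDA10, were compared with cells of the same experiment that received none, named CO. It takes in 6 of the 112 arrays of the series, 3 NMDA10 arrays and 3 CO arrays, chosen by their labels. NMDA was present until the cells were taken. The labels number the samples of both groups 2, 3 and 4, and they give no strain, age, sex or genotype. They do not say whether these were separate cultures, so p-values measure the spread between these samples, which may be technical. The same experiment holds 3 arrays each at 30, 60, 180 and 360 min of continuous NMDA, and a separate experiment gave a 10 min pulse of 1 mM NMDA, washed it out and harvested the cells 24 h later. Total RNA was measured on an Affymetrix rat array with 1322 probe sets. A probe set is a group of short probes for 1 transcript, and its signal is a linear intensity.

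The NMDA receptor is a glutamate-gated channel that passes calcium when glutamate binds while the membrane is depolarised. It is built from Grin1 subunits with Grin2 or Grin3 subunits. Calcium entry activates kinases that switch on immediate early genes, whose transcription needs no new protein. Several of these genes, among them Fos, Junb, Egr1 and Nr4a1, encode transcription factors, and factors of the CREB family bind a DNA element called CRE in many of their promoters. Long exposure of cortical neurons to a high dose of NMDA is a standard model of excitotoxic death.

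The promoters of 2 immediate early genes are shown as examples. Junb had no overlap between NMDA10 and CO, and Nr4a1 overlapped CO at 10 min and stood above its 10 min level at 60 min. Neither passed the test against CO at 10 min given below, and a difference in timing between the 2 genes was not tested. Each run covers 250 bases before the transcription start to 50 after it, 5′ to 3′ on the plus strand, from RefSeq (build GRCr8): Junb at chr19:40080876-40081175 and Nr4a1 at chr7:134259888-134260187. Capitals mark the CRE half-site TGACG or its reverse complement CGTCA.
Junb: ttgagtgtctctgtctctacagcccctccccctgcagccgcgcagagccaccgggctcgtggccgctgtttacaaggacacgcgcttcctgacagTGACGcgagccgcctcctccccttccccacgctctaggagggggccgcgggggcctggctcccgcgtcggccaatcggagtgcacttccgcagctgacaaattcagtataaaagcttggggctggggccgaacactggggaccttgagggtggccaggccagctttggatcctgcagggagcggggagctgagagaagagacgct
Nr4a1: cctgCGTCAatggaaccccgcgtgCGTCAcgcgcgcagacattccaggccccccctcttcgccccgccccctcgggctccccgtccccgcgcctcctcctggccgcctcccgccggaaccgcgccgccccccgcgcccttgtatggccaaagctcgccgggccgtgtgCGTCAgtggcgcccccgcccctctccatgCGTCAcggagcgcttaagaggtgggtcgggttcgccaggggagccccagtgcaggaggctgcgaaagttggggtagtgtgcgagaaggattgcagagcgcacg
The Junb window held 1 half-site and the Nr4a1 window 4. Neither window held the full CRE, TGACGTCA, or a CArG box, the element bound by serum response factor. Among the 33469 promoters of the table, 21.2% held a half-site, 1.83% the full CRE and 1.64% a CArG box. Of the 18 immediate early and activity-regulated genes measured here, 13 had a promoter in the table, and 11 of these held a half-site in at least 1 listed promoter. The 21.2% counts single promoters and the 11 counts genes, which can have several promoters, so the 2 cannot be set against each other. A match describes these letters and is not evidence of binding.

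Signals of cell type markers are given beside the labelled cell type. No detection calls were used, and the lowest signal on the 18 arrays was 1.98, so a signal above 0 does not by itself show expression. The 13 neuronal markers on the array had CO means from 642 for Nefh, the heavy neurofilament chain, to 106525 for Mapt, which encodes the axonal protein tau. Among the probe sets that are not controls, these means stood at percentiles 47.2 and 99.8. Map2, a dendritic protein, averaged 13834 ± 4296 (SD, n = 3). Of the astrocyte markers, Glul, which makes glutamine, stood at 17577 (percentile 96.1), Slc1a3 at 7739 (90.8), Vim at 5024 (85.6) and S100b at 4421 (84.2). Nes stood at 2705 (77.6), Gja1 at 695 (49.6) and the lowest, Slc1a2, at 567 (43.5). Of the oligodendrocyte markers, Pdgfra stood at 3928 (82.8), Mag at 2141 (73.8), Cnp at 1928 (71.9), Mbp at 994 (57.6) and Mog at 351 (31.3). Sox10, also of this list, was the lowest of all markers, at 95.5 (7.52). Summed over its measured genes, the neuronal list ran from 184762 to 261443 in CO and from 220530 to 261415 in NMDA10. The astrocyte sum over 7 genes ran from 34302 to 42071 and from 33036 to 46889, and the oligodendrocyte sum over 6 genes from 6657 to 11264 and from 7822 to 12625. The 1 microglial marker measured, Itgam, averaged 383 in CO and 318 in NMDA10. No endothelial or meningeal marker was on the array, and the ranges of the groups overlapped for each list measured.

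The RNA control probe sets set 2 of the 3 NMDA10 arrays apart. Each array carries a probe set for the 3′ end and for the 5′ end of 3 housekeeping transcripts, and the ratio of the 2 signals becomes larger as RNA is shortened from its 5′ end. For GAPDH the ratio was 1.29, 1.75 and 1.45 in CO replicates 2, 3 and 4 and 2.41, 2.27 and 1.61 in NMDA10. Replicates 2 and 3 of NMDA10 lay above every CO array, and replicate 4 lay within the CO range. The difference of the mean log2 ratios was 0.47 (exact 2-sided permutation test, p = 0.20, 3 against 3, where the smallest possible p is 0.10). Beta-actin gave 0.848, 1.03 and 0.915 in CO and 1.67, 1.29 and 0.948 in NMDA10 (exact permutation p = 0.20). Hexokinase gave 1.76, 2.58 and 2.23 and 3.23, 2.75 and 2.03 (exact permutation p = 0.40). The 14 arrays of the experiment other than NMDA10 and replicate 3 of 360 min held GAPDH ratios of 1.26 to 1.91, and that 360 min array held 2.25. For beta-actin the 14 arrays held 0.789 to 1.03 and the 360 min array 1.83. Hexokinase had another order: the 14 arrays held 1.45 to 2.80, NMDA10 replicate 3 lay within that range, and the 360 min array held 1.10. The same 3 arrays had the lowest correlations with the rest. The median correlation with the other arrays was 0.860 for NMDA10 replicate 2, 0.878 for NMDA10 replicate 3 and 0.786 for 360 min replicate 3, against 0.901 to 0.938 for the other 15.

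**Figure D1:**
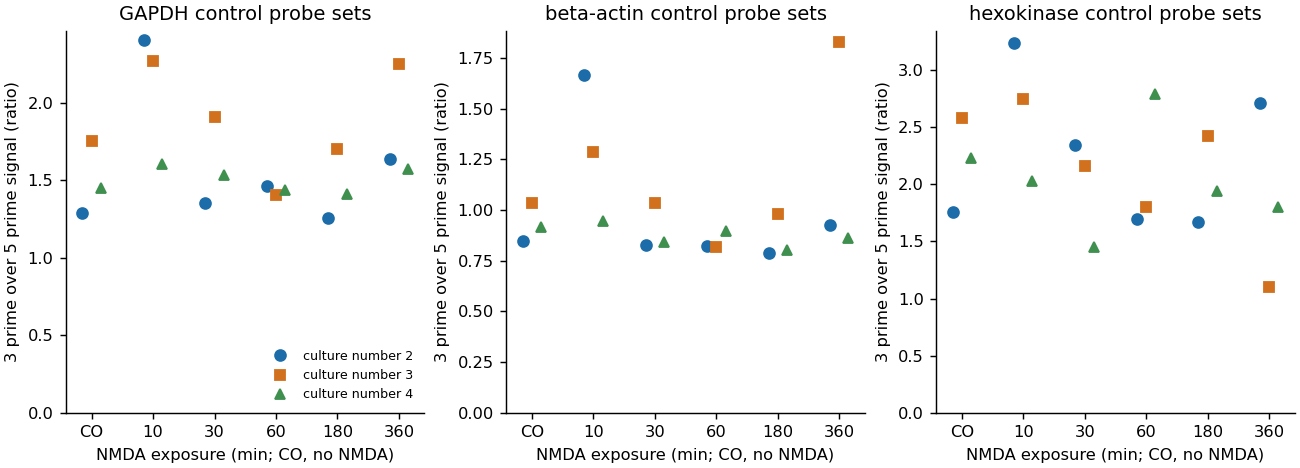
Ratio of 3′ to 5′ signal (y axis, ratio) for 3 housekeeping transcripts on the 18 arrays of the continuous exposure experiment, by minutes of NMDA (x axis); 1 point per array, marker and colour give the replicate number (drawn as culture number). GAPDH stood at 2.41 and 2.27 in NMDA10 replicates 2 and 3, above the 3 CO arrays.

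At 10 min no probe set passed an adjusted p of 0.05 against control: of 884 tested, 0 were called (0%). The test was limma over all 18 arrays of the experiment with Benjamini-Hochberg adjustment, and the smallest adjusted p was 0.336. The log2 of each signal plus an offset of 86.0 was tested, and probe sets in the lowest 30% of mean signal were left out, so 884 of 1263 were tested. Before adjustment 63 probe sets had p under 0.05, 5 higher in NMDA10 (0.566% of those tested) and 58 lower (6.56%). The 3 NMDA10 arrays lay all above the 3 CO arrays for 33 probe sets (3.73%) and all below for 53 (6.00%). The median log2 difference over all tested was -0.04, and 414 lay above 0. Within replicate numbers this median was -0.10, 0.01 and -0.03 for replicates 2, 3 and 4. The median signal of the array was 561, 797 and 692 in NMDA10 replicates 2, 3 and 4. It was 638 to 808 on the 14 arrays other than NMDA10 and replicate 3 of 360 min. The 95% interval of a typical probe set reached 0.84 to either side on the log2 scale before any adjustment for the number of tests. On this scale 10 probe sets were higher by 1 or more and 49 lower by 1 or more. The median over all tested was 0.06 after median centring of the arrays, -0.16 with the GAPDH ratio of each array as a covariate and -0.12 without NMDA10 replicate 3. With the replicate number as a block, 0 passed (smallest adjusted p = 0.0899), and 116 had p under 0.05 before adjustment, 85 of them lower. With the GAPDH covariate again 0 passed (smallest adjusted p = 0.114), and of the 75 with p under 0.05 before adjustment 39 were lower, against 58 of 63 without it. Without NMDA10 replicate 2, 27 had such p. The fit with the GAPDH covariate held no replicate term. Replicate 3 had the highest GAPDH ratio of its group in CO and at 30, 180 and 360 min, and the lowest at 60 min. Values with the covariate can therefore also carry levels of replicate 3, and the 2 were not separated.

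**Figure D2:**
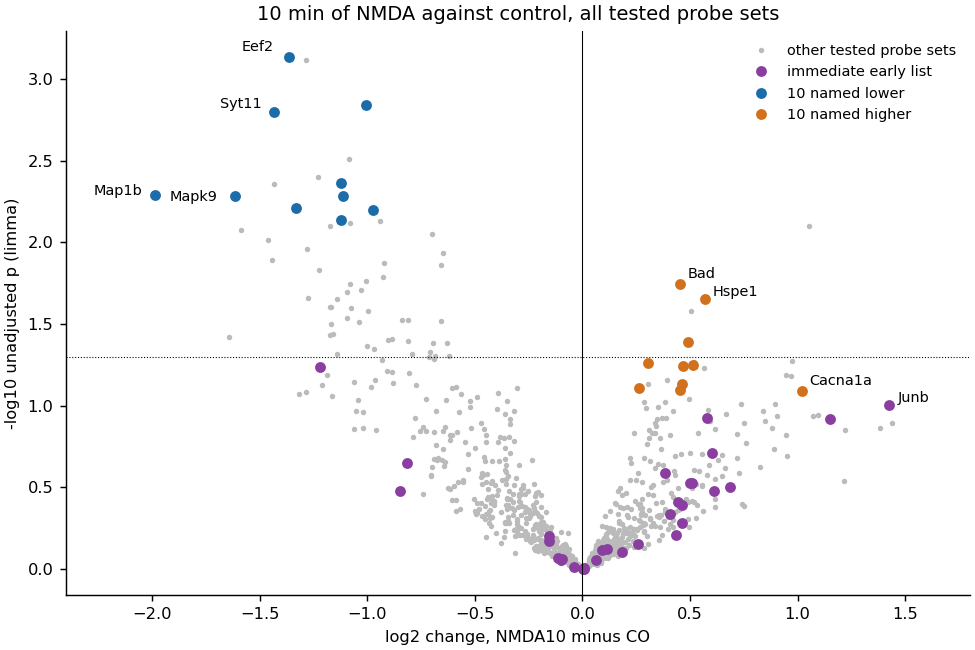
Log2 difference between NMDA10 and CO (x axis) against −log10 of the limma p before adjustment (y axis) for the 884 tested probe sets; the dotted line marks the level 0.05. Blue and orange points are the 10 named lower and the 10 named higher probe sets, purple points those of the immediate early list, none past the adjusted threshold; 58 points above the line lie on the lower side and 5 on the higher.

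The 10 lower probe sets named here were those with 1 gene and the smallest p among the 53 without overlap, and none passed the test. They had log2 differences of -1.99 to -0.97 and adjusted p of 0.336 to 0.390, and 0.0899 to 0.139 with the replicate block. The first 2 were assigned to Eef2, the elongation factor that moves the ribosome along the mRNA. Eef2 probe set rc_AA963674_at measured 61646, 46464 and 40498 in CO replicates 2, 3 and 4 and 11720.1, 19602 and 29323 in NMDA10, a log2 difference of -1.36 (SE 0.33, n = 3 and 3, limma adjusted p = 0.336). Every NMDA10 array was below every CO array, and replicate 2 was the lowest. At 30 min the same probe set measured 61317, 49359 and 62523, back among the control values. Eef2 probe set rc_AA892801_g_at went from 28580.3, 24716 and 20145 to 8377, 12124 and 17015, a difference of -1.01 (SE 0.27, n = 3 and 3, limma adjusted p = 0.352), with the same order of arrays. The gene of the first is uncertain, because probe set rc_AA963674_g_at, numbered from the same sequence, is annotated as Map2k2, a MAP kinase kinase. It measured 14049, 7181 and 12789 in CO and 18531, 11419 and 13107 in NMDA10, higher in each pair, 0.37 (SE 0.26, adjusted p = 0.860).

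Syt11, a synaptotagmin of vesicle trafficking, measured 4962, 2915 and 3342 in CO and 603, 1739.9 and 2016 in NMDA10, a difference of -1.43 (SE 0.38, n = 3 and 3, limma adjusted p = 0.352). Map1b, a microtubule protein of growing axons, measured 1257, 966 and 885 and 111, 348 and 171, the largest difference of the 10 at -1.99 (SE 0.62, n = 3 and 3, limma adjusted p = 0.390). Mapk9, the stress-activated kinase JNK2, measured 1452, 934 and 929 and 193, 203 and 598, -1.62 (SE 0.50, adjusted p = 0.390). In each of these the 3 NMDA10 arrays lay below the 3 CO arrays. Canx, a chaperone of the endoplasmic reticulum, measured 15208, 7739 and 7754 and 2156, 3712 and 6831, -1.33 (SE 0.43, adjusted p = 0.390), and its replicate 4 pair differed by -0.18 on the log2 scale against -2.77 for replicate 2. Clcn4, a chloride and proton exchanger, measured 2072, 1399.6 and 1559 and 698, 555 and 931, -1.12 (SE 0.34, adjusted p = 0.390). Ncam1, a cell adhesion protein, measured 6597, 6517 and 4797 and 1546, 3048 and 4064, -1.11 (SE 0.35, adjusted p = 0.390). These pairs show the same order, with replicate 4 nearest its control in Canx, Clcn4 and Ncam1. Gmfb, glia maturation factor beta, measured 2623, 3103 and 1624 and 989, 1064 and 1490.5, -0.97 (SE 0.31, adjusted p = 0.390). Bcl2l1, which encodes the survival protein Bcl-xL, measured 7224, 4558 and 4448 and 1217, 2806 and 3864, -1.12 (SE 0.37, adjusted p = 0.390). In bulk RNA, fewer cells of a type and less RNA per cell cannot be told apart.

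The size of these 10 differences varied with the replicate number. Within replicate numbers the median of the 10 log2 differences was -2.42 for replicate 2, -1.14 for replicate 3 and -0.35 for replicate 4, and replicate 2 gave the largest difference in 9 of 10. The GAPDH ratio of the NMDA10 array stood in the same order as these medians, at 2.41, 2.27 and 1.61. Not every probe set had this order: in replicates 2, 3 and 4 Map1b differed by -2.77, -1.28 and -1.92 and Gmfb by -1.33, -1.47 and -0.12. Whether the ratio bears on these differences was not tested. Without NMDA10 replicate 2 the median of the 10 was -0.93 in place of -1.23, and with the GAPDH ratio as a covariate it was -0.52, with all 10 still below 0 (-1.19 to -0.33). At 30 min the mean of each of the 10 was above its 10 min mean, and 9 of the 10 means lay within the range of the CO arrays. The 10 were chosen for low values in NMDA10, so means nearer control in another group can follow from that choice alone.

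Several of these genes had other probe sets. Slc1a3 and Snap25, which were not among these genes, are given beside them. Slc1a3, the glial glutamate transporter GLAST, gave opposite values: S75687_s_at measured 4183, 2127 and 3205 in CO and 676, 752 and 2381 in NMDA10, -1.43 (SE 0.44, adjusted p = 0.390), while its brightest probe set S59158_at averaged 7739 ± 855 (SD, n = 3) and 9681 ± 1916, 0.31 (SE 0.20), and its other 2 gave -0.23 and 0.03. All 3 tested probe sets of Ncam1 lay below CO without overlap, at -1.11, -1.09 and -0.32, the last in the brightest. Bcl2l1 gave -1.12, -0.69 and -0.42 in its 3 tested probe sets. Mapk9 gave -1.62, -1.23 and -0.90, and Map1b -1.99, -1.64 and -0.70. Snap25, a SNARE protein of vesicle fusion, gave -1.59, -1.08, -0.79 and -1.21. None of these passed. Probe sets of 1 gene thus had 1 sign in Ncam1, Bcl2l1, Mapk9, Map1b and Snap25 and both signs in Slc1a3. All of them read the same RNA on the same arrays, so a shared sign is no separate result.

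The 10 higher probe sets, chosen the same way from the 33 without overlap, had smaller differences, 0.27 to 1.02 on the log2 scale. Their limma adjusted p was 0.511 to 0.760, and 0.133 to 0.460 with the replicate block. Bad, which promotes apoptosis by binding Bcl-2 proteins, measured 18937, 14980.5 and 16945 in CO and 28178, 21261 and 20733 in NMDA10, a difference of 0.45 (SE 0.17, n = 3 and 3, limma adjusted p = 0.511). Bax, which permeabilises the outer mitochondrial membrane, measured 22498, 27582 and 24474 and 31266, 31336 and 29290.4, 0.31 (SE 0.15, adjusted p = 0.700). Hspe1, the mitochondrial chaperonin that works with Hspd1, measured 17997, 17341 and 20432 and 33529, 24232 and 25843, 0.57 (SE 0.23, adjusted p = 0.547). All 3 were back near control at 30 min, Hspe1 at 16256, 21281 and 19052. Cacna1a, the pore of the P/Q calcium channel, measured 320.2, 126 and 341 and 605, 431 and 774, 1.02 (SE 0.55, adjusted p = 0.760), at a low signal. Its 3 other tested probe sets gave -0.34, -0.96 and -0.10, the opposite sign. The other 6 were Syt5, a synaptotagmin of dense-core vesicles, at 0.49, the presenilin Psen2 at 0.51, the neuronal actin-binding protein Tagln3 at 0.47, the myelin enzyme Cnp at 0.47, the cytokine Mif at 0.27 and the endosomal SNARE Stx8 at 0.46. The other tested probe sets of Bad, Bax, Hspe1, Psen2, Mif and Stx8 were above 0 too, at 0.18 for Bad and 0.58 for Psen2, and overlapped CO except in Psen2. The median of the 10 was 0.56 in replicate 2, 0.49 in replicate 3 and 0.27 in replicate 4, and all 10 means at 30 min were below those at 10 min. These 10 were chosen for high values in NMDA10, so lower means in another group can follow from that choice alone. Without NMDA10 replicate 2 the median of the 10 was 0.36 in place of 0.47, and with the GAPDH covariate it was 0.46. Single values moved by more: Tagln3 gave 0.026 with that covariate, Mif 0.12 and Stx8 0.23 without NMDA10 replicate 2, and Cnp 0.24 without CO replicate 3.

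**Figure D3:**
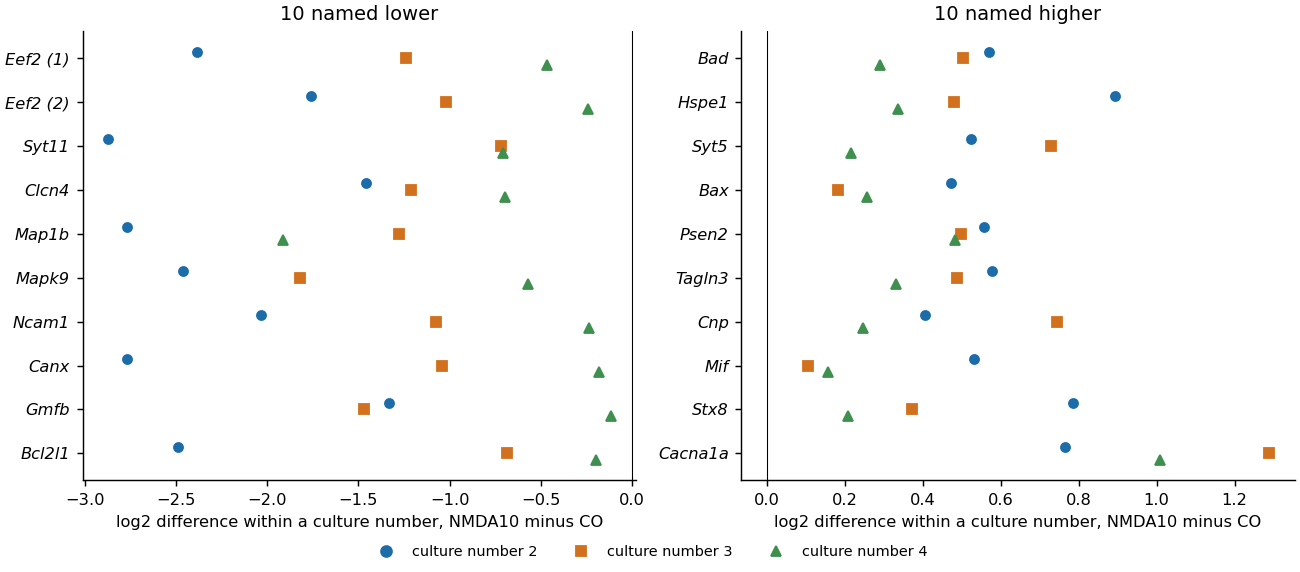
Log2 difference between NMDA10 and CO within each replicate number (x axis, drawn as culture number) for the 10 named lower and 10 named higher probe sets (y axis, by gene; Eef2 (1) is rc_AA963674_at and Eef2 (2) is rc_AA892801_g_at). Replicate 2 gave the largest difference in 9 of the 10 lower and 7 of the 10 higher.

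No immediate early or activity-regulated gene passed the test at 10 min. The list of 54 genes had 18 on the array, of which 16 were tested and Fosl1 and Dusp4 lay below the filter. With each gene taken as its brightest probe set, 12 were higher and 4 lower, and the median log2 difference was 0.15, against 414 of 884 above 0 and a median of -0.04 over all probe sets. Junb and Plat lay above CO without overlap, 2 of 16 where 3.73% of all tested did, and 0 of 16 lay below, where 6.00% did. Junb, an AP-1 transcription factor, had the largest difference. It measured 679.9, 819 and 499 in CO and 3092, 1243 and 1778 in NMDA10, a difference of 1.43 (SE 0.82, n = 3 and 3, limma adjusted p = 0.789). All 3 NMDA10 arrays were above all 3 CO arrays, and the 30 min arrays, at 3379, 2369.5 and 4021, were higher again in each replicate number. The difference ran from 1.09 without NMDA10 replicate 2 to 2.65 with the GAPDH ratio as a covariate, and its adjusted p from 0.113 to 0.986 over all alternatives.

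Fos, the partner of the Jun proteins in AP-1, was read by 3 tested probe sets. X06769cds_at measured 432, 890.2 and 367 in CO and 1299, 832 and 1892 in NMDA10, 1.15 (SE 0.71, adjusted p = 0.789), with replicates 2 and 4 above CO and replicate 3 within it. The brightest, X06769cds_g_at, measured 4581, 6706 and 5104 and 5046, 8508 and 10444, 0.50 (SE 0.46, adjusted p = 0.990), higher in each pair but overlapping. Fos probe set X03347cds_g_at gave 0.46. Egr1, a zinc finger factor, was read by 4, and the brightest, AF023087_s_at, measured 8358, 12615 and 6303 and 12054, 12342 and 15865, 0.60 (SE 0.45, adjusted p = 0.893). The others gave 0.58, 0.45 and 0.00, and the groups overlapped in all 4. The nuclear receptors Nr4a1 and Nr4a3 had differences near 0 without the covariate. Nr4a1 U17254_g_at measured 1848, 971 and 1236 and 1274, 1899 and 1629, 0.26 (SE 0.67, adjusted p = 0.994), and U17254_at gave -0.11. Nr4a3 X86003_at measured 1236, 1308 and 1219.7 and 801, 1436 and 1718, 0.01 (SE 0.65, adjusted p = 0.997).

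The GAPDH ratio of each array as a covariate moved these values, and none passed with it (limma adjusted p = 0.544 or more). The list median went from 0.15 to 0.60. Fos X06769cds_at went from 1.15 to 2.34 and Egr1 AF023087_s_at from 0.60 to 1.33. For Nr4a1, U17254_g_at went from 0.26 to 1.46 and U17254_at from -0.11 to 1.13, and Nr4a3 X86003_at went from 0.01 to 1.00. Jun, Jund and Fosl2 changed sign, to 0.79, 0.72 and 0.47. This fit held no replicate term, so such shifts can also carry levels of replicate 3, where Jund was lowest in every group. Which of these moved the values was not tested.

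Among the other transcription factors of the list, Jun gave -0.10 (SE 0.66, adjusted p = 0.994), Jund -0.85 (SE 0.85, adjusted p = 0.994), Fosl2 -0.81 (SE 0.65, adjusted p = 0.922) and Crem, a CREB relative, 0.18. Cebpb followed the replicate number more than NMDA: X60769mRNA_at measured 2568, 852 and 841 in CO and 4867, 1146 and 845 in NMDA10, 0.43 (SE 0.86, adjusted p = 0.994), with replicate 2 highest in both groups. Bdnf, a neurotrophin induced by activity, was read by 7 tested probe sets with differences of both signs. Its brightest, D10938exon_s_at, measured 667, 352 and 458 in CO and 3005, 407 and 403 in NMDA10, 0.68 (SE 0.66, adjusted p = 0.994). Replicate 2 alone was high, and without it the difference was -0.20. Bdnf S71196mRNA_s_at measured 567, 163 and 934 and 89.9, 277 and 120.3, -1.22 (SE 0.60, adjusted p = 0.714), with CO replicate 3 among the NMDA10 values. The effectors of the list were the secreted peptide precursor Vgf at 0.11, the cyclooxygenase Ptgs2 at 0.06, the phosphatase Dusp5 at 0.09, the protease Plat at 0.38, and the synaptic pentraxin Nptx2 at 0.51 and -0.15 in its 2 probe sets.

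**Figure D4:**
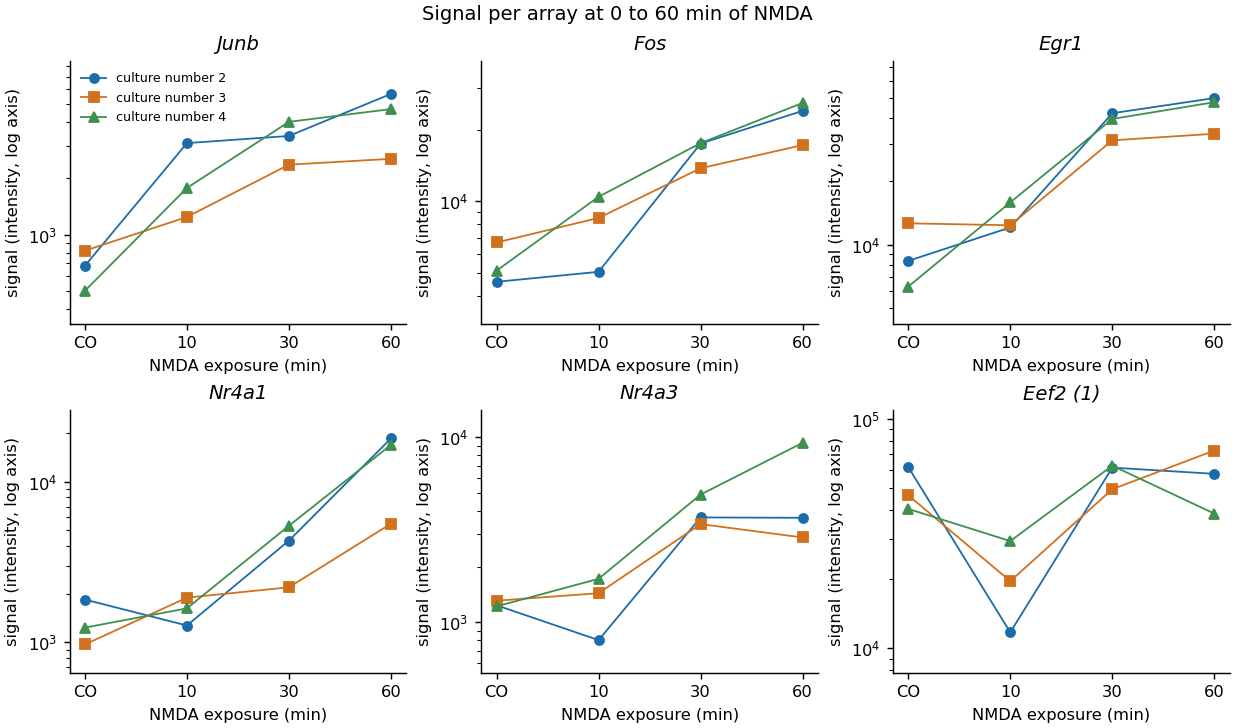
Signal per array (y axis, intensity on a log axis) in CO and after 10, 30 and 60 min of NMDA (x axis) for Junb, Fos X06769cds_g_at, Egr1 AF023087_s_at, Nr4a1 U17254_g_at, Nr4a3 X86003_at and Eef2 rc_AA963674_at; lines join arrays of 1 replicate number (drawn as culture number). At 10 min the Junb arrays lie above the CO arrays, the Nr4a arrays overlap CO, and Eef2 is lowest in each replicate number. None of these passed the adjusted threshold against CO at 10 min.

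None of the NMDA receptor subunit genes passed at 10 min, with 6 of 7 on the array and 6 tested. By their brightest probe sets 1 was higher and 5 lower, with a median of -0.27, and none was free of overlap. Grin1, the obligatory subunit, measured 2396, 1610.4 and 1295 in CO and 1361, 1774 and 1105 in NMDA10, -0.29 (SE 0.38, adjusted p = 0.994). Its U11418_s_at gave -0.14, and 2 further probe sets lay below the filter. Grin2b measured 2881, 1774 and 2252 and 1629.5, 2933 and 2029, -0.08 (SE 0.27, adjusted p = 0.994), and Grin2a AF001423_at 943, 2148 and 2004 and 604, 2129 and 1231, -0.42 (SE 0.58, adjusted p = 0.994), while Grin2a D13211_s_at gave 0.02. For Grin2c the 2 probe sets gave -0.26 and 0.28, and for Grin2d 0.24 and -0.03. Grin3a, which lowers the calcium flux of the channel, was the furthest from control in all 3 of its probe sets. Its brightest, U29873_at, measured 1199.8, 1386 and 1849 and 486, 414 and 1975, -0.88 (SE 0.46, adjusted p = 0.748), with replicates 2 and 3 below CO and replicate 4 above it. The others gave -1.05 and -1.16, and with the GAPDH covariate the 3 gave -0.19 for U29873_at, -1.52 for AF061945_at and -0.44 for AF061945_g_at.

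The other lists of the pathway and of the neuron also held no gene past the threshold, each gene taken as its brightest probe set. For the AMPA, kainate and delta receptor subunits, with 10 genes on the array and 7 tested, 2 had a log2 difference above 0 and 5 below, and the median was -0.32. The highest member was Grik5 at 0.11 (SE 0.18, adjusted p = 0.994) and the lowest Grik3 at -1.17 (SE 0.47, adjusted p = 0.568). The AMPA subunits Gria1 and Gria2 stood at -1.02 and -0.45. For the metabotropic glutamate receptors, with 7 genes on the array and 6 tested, 4 had a log2 difference above 0 and 2 below, and the median was 0.25. Its members ran from Grm7 at -0.77 (SE 0.41, adjusted p = 0.748) to Grm6 at 0.91 (SE 0.55, adjusted p = 0.789). For the GABA and glycine receptors, with 20 genes on the array and 15 tested, 6 had a log2 difference above 0 and 9 below, and the median was -0.14. At the ends of the list stood Gabbr1 at -0.57 (SE 0.34, adjusted p = 0.789) and Gabra6 at 0.58 (SE 0.50, adjusted p = 0.975). The calcium signalling and scaffold genes, which carry the signal from the receptor, lay close to 0. With 29 genes on the array and 23 tested, 14 had a log2 difference above 0 and 9 below, and the median was 0.05. Members ranged between Ppp3cb at -0.59 (SE 0.31, adjusted p = 0.748) and Camk1 at 0.38 (SE 0.32, adjusted p = 0.962). The calmodulin genes Calm2 and Calm3 gave -0.08 and -0.08.

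Of 27 synaptic vesicle and release genes tested, 1 higher (Syt5) and 4 lower had p under 0.05 before adjustment, where 0.566% and 6.56% of all probe sets had such p. With 33 genes on the array and 27 tested, 11 had a log2 difference above 0 and 16 below, and the median was -0.18. The 4 lower were Syt11, Snap25, Stx7, an endosomal SNARE, at -0.66, and Syt7, a calcium sensor of release, with means of 504 ± 149.6 in CO and 226 ± 158 in NMDA10 (SD, n = 3). The vesicle protein Syp was above 0 at 0.31, and Slc18a2 was highest at 0.49. For the sodium and calcium channels, with 22 genes on the array and 18 tested, 8 had a log2 difference above 0 and 10 below, and the median was -0.03. The highest member was Scn1a at 0.28 (SE 0.45, adjusted p = 0.994) and the lowest Cacnb2 at -1.04 (SE 0.58, adjusted p = 0.773). For the potassium channels, with 39 genes on the array and 22 tested, 10 had a log2 difference above 0 and 12 below, and the median was -0.07. Its members ran from Kcnc4 at -0.58 (SE 0.38, adjusted p = 0.789) to Kcnj10 at 0.38 (SE 0.47, adjusted p = 0.994). For the cytoskeleton genes, with 11 genes on the array and 11 tested, 8 had a log2 difference above 0 and 3 below, and the median was 0.07. At the ends of the list stood Map1b at -1.64 (SE 0.73, adjusted p = 0.651) and Map1a at 0.37 (SE 0.23, adjusted p = 0.789). Eef2 was the 1 translation gene on the array.

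Among the 20 lists with tested members the stress response genes had the highest median. With 12 genes on the array and 11 tested, 8 had a log2 difference above 0 and 3 below, and the median was 0.31. Members ranged between Sod2 at -0.52 (SE 0.29, adjusted p = 0.773) and Hspe1 at 0.57 (SE 0.23, adjusted p = 0.547). The metallothionein Mt3 stood at 0.57, and the chaperonin partner of Hspe1, Hspd1, at 0.30. The stress median ran from 0.02 without CO replicate 3 to 0.42 without CO replicate 2. For the cell death and calpain genes, with 19 genes on the array and 15 tested, 6 had a log2 difference above 0 and 9 below, and the median was -0.08. The highest member was Casp6 at 0.51 (SE 0.48, adjusted p = 0.992) and the lowest Bcl2l1 at -0.42 (SE 0.39, adjusted p = 0.990). For the energy metabolism genes, with 6 genes on the array and 6 tested, 5 had a log2 difference above 0 and 1 below, and the median was 0.23. Its members ran from Atp1b2 at -0.69 (SE 0.33, adjusted p = 0.697) to Slc2a1 at 0.50 (SE 0.37, adjusted p = 0.893). For the neurotrophic factors and their receptors, with 20 genes on the array and 15 tested, 8 had a log2 difference above 0 and 7 below, and the median was 0.00. At the ends of the list stood Tgfa at -0.65 (SE 0.47, adjusted p = 0.860) and Bdnf at 0.68 (SE 0.66, adjusted p = 0.994). For the inflammation genes, with 19 genes on the array and 10 tested, 4 had a log2 difference above 0 and 6 below, and the median was -0.06. Members ranged between Nos2 at -0.61 (SE 0.67, adjusted p = 0.994) and Il10 at 0.52 (SE 0.59, adjusted p = 0.994). For the neuropeptides and granins, with 16 genes on the array and 11 tested, 8 had a log2 difference above 0 and 3 below, and the median was 0.07. The highest member was Oxt at 0.61 (SE 0.67, adjusted p = 0.994) and the lowest Pdyn at -0.22 (SE 0.58, adjusted p = 0.994). Neuronal markers had a median of 0.07, astrocyte markers -0.22 and oligodendrocyte markers 0.06. Across the processing alternatives 11 of the 20 list medians took both signs, so their direction was not settled by these arrays. Those of immediate early, stress, metabotropic receptor and calcium signalling genes stayed above 0, and those of NMDA receptor, AMPA receptor, GABA receptor, vesicle and translation genes stayed below 0. The translation list was 1 probe set, Eef2 rc_AA963674_at, already named above for its low values, so its sign is no separate result. The values nearest 0 were 0.00059 for calcium signalling, -0.0071 for GABA receptor, -0.015 for AMPA receptor and 0.02 for stress genes. A kept sign therefore settles no direction.

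The 30 and 60 min groups were set against NMDA10 to show when transcripts moved after the first 10 min. These comparisons share the NMDA10 arrays with the one above, so a low value in NMDA10 enters both. At 30 min, 0 of 884 probe sets passed (0%, limma, smallest adjusted p = 0.0710; 76 with p under 0.05 before adjustment). With the replicate number as a block, 13 were higher at 30 min (1.47%) and 3 lower (0.339%). Without the 360 min array of replicate 3, 2 passed, both Eef2. At 60 min, 0 passed (0%, smallest adjusted p = 0.0624; 60 with p under 0.05 before adjustment), and with the block 12 were higher (1.36%) and 2 lower (0.226%). Without the 360 min array of replicate 3, 10 passed at 60 min. Leaving out NMDA10 replicate 4 gave 8 calls at 30 min and 3 at 60 min, and leaving out NMDA60 replicate 3 gave 4 at 60 min. With the GAPDH ratio as a covariate 0 passed at either time (limma, 63 and 77 with p under 0.05 before adjustment).

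Immediate early genes were among those higher after 10 min with the block. Egr1 M18416_at measured 1871, 2189.9 and 3225 at 10 min, 11315, 6927 and 10199 at 30 min and 16089, 7583 and 14133 at 60 min. Every 30 min array was above every 10 min array, and the difference was 1.93 (SE 0.51, limma adjusted p = 0.195, and 0.0261 with the replicate block) at 30 min and 2.30 (SE 0.51, limma adjusted p = 0.0624, and 0.00917 with the replicate block) at 60 min. Nr4a1 U17254_g_at measured 1274, 1899 and 1629 at 10 min and 18609, 5481 and 16973 at 60 min, 2.86 (SE 0.67, limma adjusted p = 0.0657, and 0.00344 with the replicate block). Nr4a1 U17254_at gave 2.75 at 60 min, and replicate 3 was the lowest of the 60 min arrays in both. Fos X03347cds_g_at measured 1585, 2378 and 3581 at 10 min and 16090.4, 5776 and 16334 at 60 min, 2.23 (SE 0.71, limma adjusted p = 0.305, and 0.0459 with the replicate block). Egr1 rc_AI176662_s_at differed by 1.68 (SE 0.46, limma adjusted p = 0.195, and 0.0425 with the replicate block) at 30 min, and at 60 min both it and AF023087_s_at passed with the block. Probe set U75397UTR#1_s_at, which has no gene in the annotation, measured 1282, 1345 and 1126 in CO, 1674, 2372 and 2105 at 10 min and 8584, 4914 and 7375 at 60 min and differed from 10 min by 1.70 (SE 0.40, limma adjusted p = 0.0657, and 0.0134 with the replicate block) at 60 min. Nr4a3 X86003_at passed at 60 min without the 360 min array of replicate 3, with a difference of 1.81 and an adjusted p of 0.0390.

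Most other transcripts higher at 30 or 60 min than at 10 min were those with low values in NMDA10. The first Eef2 probe set differed by 1.60 (SE 0.33, limma adjusted p = 0.0710, and 0.0261 with the replicate block) at 30 min, and the second by 1.30 (SE 0.27, limma adjusted p = 0.0710, and 0.0261 with the replicate block). Both passed with the block at 60 min as well. Canx differed by 1.67 (SE 0.43, limma adjusted p = 0.195, and 0.0261 with the replicate block), and Slc1a3 S75687_s_at by 1.55 (SE 0.44, limma adjusted p = 0.195, and 0.0261 with the replicate block). Stx12, an endosomal SNARE, measured 3408, 1668 and 2753 in CO, 661, 910.5 and 1727 at 10 min and 3414, 2084 and 3152 at 30 min, with replicate 4 of NMDA10 within the CO range. Sdc3, a heparan sulfate proteoglycan of axons, Clcn4, Mapk9, Scarb1, a lipoprotein receptor, and Pkia, an inhibitor of protein kinase A, passed with the block at 30 min with differences of 1.82, 1.23, 1.76, 1.34 and 1.40. Of the 13 higher, Gabra4, a GABA receptor subunit, had a 10 min level near control: it measured 317, 185 and 683 in CO, 236, 145 and 686 at 10 min and 1131, 833 and 937 at 30 min, 1.44 (SE 0.48, limma adjusted p = 0.286, and 0.0425 with the replicate block).

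Gnb1, the beta 1 subunit of heterotrimeric G proteins, made up all 3 probe sets lower at 30 min with the block. U88324_at measured 4065, 2878 and 3193 in CO, 13691, 3911 and 3194 at 10 min and 3287, 1691 and 1558 at 30 min, a difference of -1.40 (SE 0.48, limma adjusted p = 0.286, and 0.0261 with the replicate block). U88324_g_at measured 10259, 3880.3 and 4469, 29606, 7795 and 4989 and 9452, 3991 and 2535, -1.18 (SE 0.64, limma adjusted p = 0.681, and 0.0261 with the replicate block). The third, rc_AI227660_s_at, measured 5105, 2028 and 1623 in CO, 22892, 2102 and 1653 at 10 min and 3074, 1134 and 909.6 at 30 min. NMDA10 replicate 2 was the highest array in all 3. Against the CO array of the same number, U88324_g_at differed by 1.52, 0.99 and 0.16 in replicates 2, 3 and 4, and rc_AI227660_s_at by 2.15, 0.05 and 0.02. The 2 probe sets lower at 60 min with the block were U88324_at and U88324_g_at.

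The effect at the end of 10 min was also set against that of a 10 min pulse, washed out, 24 h later. The pulse was run in a separate experiment with 4 arrays a group. Its labels carry 4 tags, and they do not say whether these are separate cultures. The tags are called replicates 1 to 4 here for the control and the 10 min pulse, and the block there is the tag. The difference between the effects, each against its own control, was tested in 1 fit of both experiments. Harvest time, washout and experiment differ together and cannot be told apart. Of 848 probe sets, 1 passed (0.118%), the activity-induced neurotrophin Bdnf on probe set S71196mRNA_s_at. With the replicate block 2 were higher after the exposure than after the pulse (0.236%) and 10 lower (1.18%). Replicate 3 of the 10 min pulse and replicate 4 of a 60 min pulse stood apart from the other arrays of that experiment, with median correlations of 0.627 and 0.736, and the GAPDH 3′ signal was 4622 in the former against 69839 to 100868 in the other 7 arrays of the pulse and its control.

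Bdnf S71196mRNA_s_at measured 305, 302, 107 and 329 in the pulse controls and 1905, 2753, 1525 and 986 after the pulse. All 4 pulse arrays were above all 4 controls, and the effect was 2.50 ± 0.48 (estimate ± SE, log2). At the end of 10 min of exposure the effect was -1.22 ± 0.55. The exposure effect minus the pulse effect was -3.72 (SE 0.73, limma adjusted p = 0.0135, and 0.00594 with the replicate block). Without the 2 pulse arrays that stood apart it was -3.77 (adjusted p = 0.0305). The call was lost, with adjusted p of 0.0526 to 0.136, without pulse CO replicate 3, pulse NMDA10 replicate 2, CO replicate 2, CO replicate 4 or NMDA10 replicate 4, and also in a fit of the 4 groups alone (adjusted p = 0.0992). The difference itself lay between -4.29 and -2.996 under all 27 alternatives. The other 2 Bdnf probe sets named here had the same order but did not pass without the block. They were named for a small p or a call with the block in this comparison. Values of further Bdnf probe sets are not given, so the shared order is no separate result for the gene. S76758_i_at gave -0.09 ± 0.67 after exposure and 2.96 ± 0.58 after the pulse, a difference of -3.05 (SE 0.89, limma adjusted p = 0.365, and 0.0333 with the replicate block). D10938exon_s_at gave 0.68 ± 0.58 and 3.12 ± 0.50, -2.44 (SE 0.77, limma adjusted p = 0.365, and 0.0390 with the replicate block).

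Among the probe sets that passed with the block, Fos X03347cds_g_at measured 2298, 1024, 632 and 1006 in the pulse controls and 16616, 9816, 10087 and 6084 after the pulse, and the difference of effects was -2.64 (SE 0.85, limma adjusted p = 0.365, and 0.0333 with the replicate block). Nr4a1 U17254_g_at measured 1335, 1675, 1348 and 2149.7 and 13607, 8032, 23123 and 6248, -2.51 (SE 0.78, limma adjusted p = 0.365, and 0.0333 with the replicate block). Nptx2 S82649_s_at measured 5047, 1144, 1319 and 1891 and 16307, 13261, 12320.0 and 3431, -2.44 (SE 0.69, limma adjusted p = 0.365, and 0.0113 with the replicate block). Fos and Nr4a1 pulse arrays lay above all their controls, and Nptx2 overlapped through 1 control and 1 pulse array. The neuropeptide genes Tac1 and Sst, which encode substance P and somatostatin, differed by -1.56 and -1.99 and passed with the block (adjusted p = 0.0341 and 0.0333; without it 0.410 and 0.842). The neurofilament gene Nefl on M25638_s_at differed by -2.28 (SE 0.68, limma adjusted p = 0.365, and 0.0518 with the replicate block). In the other direction, Slc1a6, the glutamate transporter EAAT4, measured 416, 1119.8, 809 and 692 in the pulse controls and 59.5, 66.7, 301 and 105 after the pulse, and the difference was 2.76 (SE 0.90, limma adjusted p = 0.365, and 0.0333 with the replicate block). Tagln3 differed by 1.27 (SE 0.54, limma adjusted p = 0.535, and 0.0333 with the replicate block). The unnamed AF030087UTR#1_at differed by -2.49 and passed with the block.

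**Figure D5:**
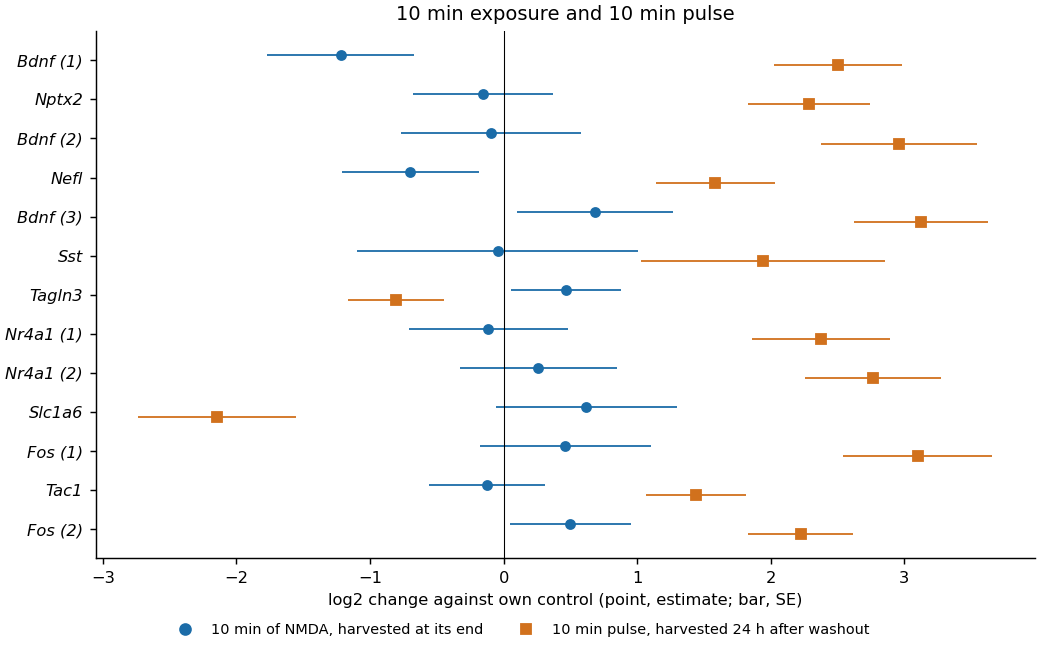
Log2 change against own control (x axis; point, estimate; bar, SE) at the end of 10 min of NMDA (3 against 3 arrays, blue circles) and 24 h after a washed-out 10 min pulse (4 against 4, orange squares) for the genes named in that comparison (y axis; numbers in brackets tell probe sets of 1 gene apart). Bdnf (1), S71196mRNA_s_at, stands at -1.22 and 2.50, and Slc1a6 at 0.62 and -2.15.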

How the data were processed

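Total RNA of primary rat cortical neurons was hybridised to an Affymetrix rat neurobiology array, 1 array a sample. The authors deposited linear intensity values for each of 1322 probe sets, held in 1 table of the whole series, per the file headers. After leaving out the highest and lowest 2% of values, the arrays shared 1 mean of 2510 to 2513, so they had been scaled to it. The software that made them: not given in the sources used here. Of 1263 probe sets that are not controls, 1137 had 1 gene in the platform annotation, 8 had several and 118 had none.

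The tenth percentile of positive values was added as an offset (86.0, and 63.1 for the pulse experiment), log2 was taken, and probe sets with a mean under the 30th percentile were left out. Group means of all 18 arrays (with the 16 pulse arrays for the pulse comparison) entered 1 model in limma (version 3.58.1, R 4.3.3), with an intensity trend, 2-sided, with Benjamini-Hochberg adjustment and a threshold of 0.05. The code was tested on simulated data. RNA ratios were compared by exact permutation. With few arrays a group, their number limits the precision.

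Deviations from the group means correlated between CO and NMDA10 arrays of the same number at 0.31, 0.47 and 0.28 (highest for unlike numbers 0.07). Those of NMDA10 with 30 and 60 min and of the pulse groups correlated at 0.12 or more. The numbers (in the pulse experiment, the tags in the labels) were therefore taken to pair the samples in an alternative fit with a block. The main fit held no block, so its p-values leave the pairing out. Values with the block are given where they move a call or count.

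Named were, in each direction, the 10 probe sets with 1 gene and the smallest p among those without overlap between NMDA10 and CO, every measured immediate early gene and NMDA receptor subunit, and the probe sets past the threshold in the other comparisons, with or without the block. A gene of a list stood as its brightest probe set. The members and lists were chosen with earlier results of these data known. Offset, filter, normalization, block, covariate, samples fitted and each array were varied, and 2 settings that leave out pulse arrays were added after the data were seen. Promoters came from RefSeq, build GRCr8.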

Additional observations from a re-analysis of the deposited data

Results flagged for a closer look

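Over the probe sets named in the comparison with the pulse, 28 groups of 4 arrays were examined on the log2 scale, and 2 held an array far from the other 3, where chance alone gives about 1 in 20 groups. Bdnf S71196mRNA_s_at measured 106.770 in replicate 3 of the pulse controls, against 302 in the nearest array. Fos X06769cds_g_at measured 34051.5 in replicate 1 of the 10 min pulse, against 16748 in the nearest array.

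The effect of 10 min of NMDA on Bdnf S71196mRNA_s_at differed between cells taken at its end and cells taken 24 h after a washed-out pulse by -3.72 on the log2 scale (limma adjusted p = 0.0135). In the pulse experiment 4 of 4 treated arrays lay above the 4 controls, and at the end of the exposure the groups overlapped. Without the low pulse control the limma adjusted p was 0.0526, and over all 27 alternatives the difference lay between -4.29 and -2.996.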

How the results depend on the processing

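The count of 0 probe sets for NMDA10 against CO held under all 18 alternatives run, with smallest adjusted p of 0.0507 to 0.986. The 10 lower and the 10 higher probe sets kept their direction in all 179 values computed for each set (Map1b X16623cds_s_at and Cacna1a AF051526_at were not tested with the filter at the median). They were chosen for having no overlap, so only normalization and the GAPDH covariate could have changed a direction, and the other settings do not test it. Of the 43 immediate early and NMDA receptor probe sets, 26 changed sign under at least 1 alternative. For 30 against 10 min the count of 0 became 2 with quantile normalization, 2 without the 360 min array of replicate 3, 16 with the replicate block and 25 with the block and without that array, and 0 to 8 leaving out single arrays. For 60 against 10 min it became 6 with only the groups compared, 10 without that 360 min array, 14 with the block and 19 with the block and without that array, and 0 to 4 leaving out single arrays. For the exposure against the pulse the count of 1 became 0 with a filter at the median, where Bdnf S71196mRNA_s_at was not tested, and 0 with only the groups compared, 12 with the block, 14 with the block and without the 360 min array, and 0 to 2 leaving out single arrays. It was 25 with the block and without the 2 pulse arrays that stood apart and the 360 min array, a setting chosen after seeing the data. The causes of these moves were not tested, apart from the filter. The log2 difference of the GAPDH ratio was 0.36 to 0.65 leaving out single arrays, and with the pairs as a replicate block the exact sign-flip p was 0.25, the smallest that 3 pairs allow. Of 360 list medians under alternatives, 33 moved by more than the spread between replicates. Signals close to the offset of 86.0 limit what low probe sets can show.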

Other observations

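Arrays of 1 replicate number held levels of their own in every group of the experiment, a pattern chosen after the values were seen. Among the 884 tested probe sets, the 6 arrays of replicate 3 were all above the 12 others for 100 probe sets and all below for 53. For replicate 2 the counts were 29 and 25, and for replicate 4 they were 15 and 12.

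The probe sets that stood furthest apart, chosen after their values were seen, were the following, and they stand for no theme: replicate 3 also held markers of glia that were highest there, such as Vim and Mag. Sst, the neuropeptide somatostatin of a class of inhibitory neurons, measured 367 to 782 on K02248cds_s_at in the 6 arrays of replicate 3 and 2675 to 8406 in the other 12. S100b, a calcium-binding protein of astrocytes, measured 318 to 1383 against 3865 to 10944, and the neuronal chemokine Cx3cl1 1288 to 2753 against 6565 to 14230. Lsamp, a cell adhesion protein of the limbic system, measured 312 to 1211 against 1688 to 3181. In replicate 2, Pik3r1, a regulatory subunit of PI3 kinase, measured 405 to 1634 against 27.0 to 211. Since each group holds 1 array of each number, these levels are shared by NMDA10 and CO.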
